A study of Homo sapiens with 6 samples.

Results

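Amino acids and small peptides cross membranes through solute carriers, and 33 genes of such carriers were followed here in PC9OR cells after knockdown of GLMP. The members were the rows of the deposited table whose symbol was on a given list of 33 amino acid and peptide carriers, out of 60664 genes, and each of the 33 symbols matched 1 row. The list was not chosen by a threshold on the counts, but earlier results of these data were known when it was chosen. Comparisons of its counts with the shares of all genes are therefore not blind to the data. Of the 33 members, 25 had enough reads to be tested and 8 did not.

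The 6 libraries were 3 of PC9OR cells with si-GLMP, labelled as a GLMP knockdown, and 3 of PC9OR cells with NC, labelled as the control. All 6 were of the same lung cancer line, a derivative of PC9, which is a human lung adenocarcinoma line with an activating EGFR deletion, and the series title concerns resistance to EGFR inhibitors. The sources used here give neither the sequence and number of the silencing RNAs nor the time after transfection nor any drug in the medium. They also do not say whether repeats were separate cultures, so p-values rest on a spread between libraries that could be purely technical.

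Solute carriers of the SLC1, SLC6 and SLC38 families use the sodium gradient to concentrate amino acids in the cell. Exchangers of the SLC7 family trade one amino acid for another, and several of them reach the cell surface only when joined to a heavy chain of the SLC3 family. Carriers of the SLC43 family pass amino acids down their gradient, those of the SLC15 family carry di- and tripeptides together with protons, and a few carriers work in the lysosomal membrane. GLMP itself is the lysosomal partner protein of MFSD1, a carrier of dipeptides out of the lysosome. Transcription of several amino acid carriers is known to respond to ATF4, the transcription factor of the amino acid response.

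GLMP was low in each library labelled si-GLMP. Its level was 4.01, 2.88 and 3.15 CPM (counts scaled to a common library total, with TMM factors) in the si-GLMP libraries, against 15.5, 16.8 and 15.4 CPM in the NC libraries. This was a log2 fold change, si-GLMP over NC, of -2.25 ± 0.14 (SE; adjusted p = 1.16e-18 by edgeR's quasi-likelihood test). GENCODE has 17.5% of the exons of GLMP overlapping TMEM79 on the opposite strand, which rose by 0.49 ± 0.10 (edgeR adjusted p = 9.95e-05). Whether the counting used strand is unknown, and the effect of this overlap on the GLMP values was not tested. Library totals lay between 19896875 and 22372878 counts, and 3 counts, taken as the floor of detection, corresponded to between 0.134 and 0.151 CPM. Mitochondrially encoded genes took between 5.19% and 5.51% of the counts in si-GLMP libraries and between 6.51% and 8.76% in NC libraries, with NC replicate 2 highest. NC replicate 2 also stood apart over the whole table: the chi-square per degree of freedom of its counts was 10.4 and 11.9 against the other NC libraries, beside 2.23 between those 2 and between 4.78 and 9.01 among si-GLMP libraries. Of the cell type markers, the 6 epithelial ones summed to between 6961 and 7682 CPM in si-GLMP libraries and to between 7088 and 7280 CPM in NC libraries. The 3 markers of lung adenocarcinoma (NKX2-1, NAPSA and SFTPB) summed to less than 1 CPM in every library, and the leukocyte markers LYZ and TYROBP had 0 counts in all 6. Of 13 tested markers, 4 were higher in si-GLMP, EPCAM, CDH1, CLDN4 and COL1A1, and 0 were lower, where 12.0% of all tested genes were called higher. The 4 fibroblast markers summed to between 10.4 and 12.0 CPM in si-GLMP libraries and to between 5.59 and 7.13 CPM in NC libraries. COL1A1 carried most of that sum, DCN and LUM had at most 1 count in a library, and the part of these markers in the results below was not tested. In bulk RNA, fewer cells of a kind and less RNA per cell cannot be told apart.

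More carrier genes rose than fell in si-GLMP cells. Of the 25 tested members, 7 were higher in si-GLMP, 2 were lower and 16 did not pass an edgeR adjusted p of 0.05, so 9 of 25 were called where 23.3% of all 15900 tested genes were called. Among all tested genes 12.0% were called higher and 11.3% lower. Without NC replicate 2, 6 members were higher and 2 lower, SLC38A2 being the call lost. The 7 that rose were SLC7A5, SLC3A2, SLC6A9, SLC38A2, SLC38A7, SLC38A10 and SLC43A2, and the 2 that fell were SLC7A2 and SLC7A6. The changes were modest, between -1.06 and 0.71 on the log2 scale, and SLC7A2 alone passed an absolute log2 fold change of 1. The median log2 fold change of the 25 members was 0.14, beside 0.00356 over all tested genes. The ranges of the groups in CPM were separate for 11 of the 25, with si-GLMP above NC in 9 and below in 2. Over all tested genes the ranges were separate in 36.5%, with si-GLMP above in 18.5% and below in 17.9%.

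**Figure D1:**
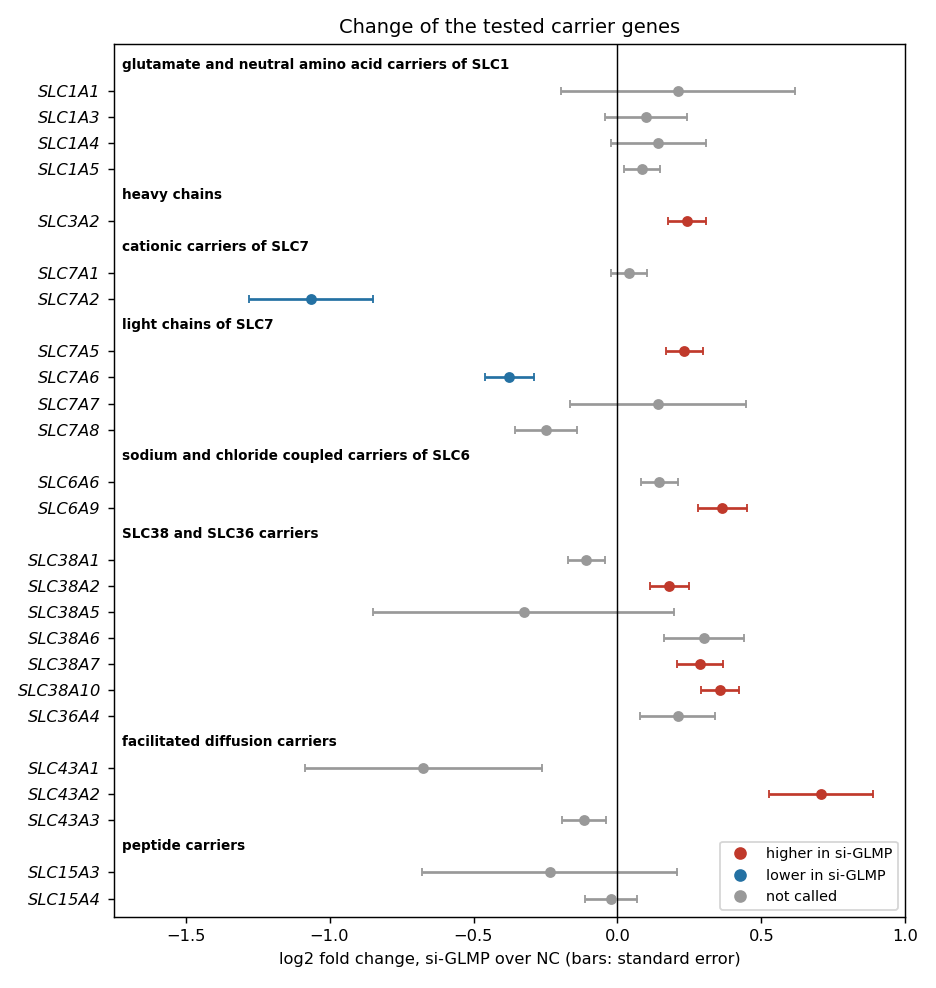
Log2 fold change of si-GLMP over NC (horizontal axis) for the 25 tested carrier genes, grouped by transport family down the page, with bars of 1 standard error from the edgeR fit of 3 libraries a group. SLC43A2 at 0.71 and SLC7A2 at -1.06 lie farthest out among the called genes, and most called genes lie between 0.18 and 0.36.

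The level of these transcripts was dominated by a single carrier. In RPKM (TMM-scaled CPM divided by kilobases of exon, on the length of all annotated exons of a gene joined), SLC7A5 averaged 370.4 in si-GLMP and 315.3 in NC. It made up 44.7% ± 1.20 of the summed RPKM of the 33 members in si-GLMP and 42.9% ± 0.843 in NC (SD, n = 3 each). SLC3A2, its heavy chain, came next at 96.2 RPKM in si-GLMP and 81.3 in NC. SLC1A5, SLC38A2, SLC7A1, SLC6A6, SLC38A1, SLC38A10, SLC43A3 and SLC38A7 followed in that order in both groups, from 78.6 down to 6.90 RPKM in si-GLMP and from 74.1 down to 5.65 RPKM in NC. In si-GLMP the ranges of the libraries overlapped between the neighbours SLC1A5 and SLC38A2 and between SLC7A1 and SLC6A6, so these pairs could not be ordered there. In NC both pairs were separate, narrowly so for SLC7A1 (lowest 46.06 RPKM) and SLC6A6 (highest 46.01 RPKM). SLC38A7 and the next gene, SLC6A9, at 6.79 RPKM in si-GLMP and 5.27 in NC, overlapped in both groups. The last of the 10 places was therefore not settled. Together the 10 genes held between 96.9% and 97.1% of the summed RPKM in si-GLMP libraries and between 96.5% and 96.7% in NC libraries. The 33 members took 0.459%, 0.458% and 0.488% of all counts in the si-GLMP libraries, against 0.412%, 0.405% and 0.422% in the NC libraries, so the share was higher in each si-GLMP library.

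**Figure D2:**
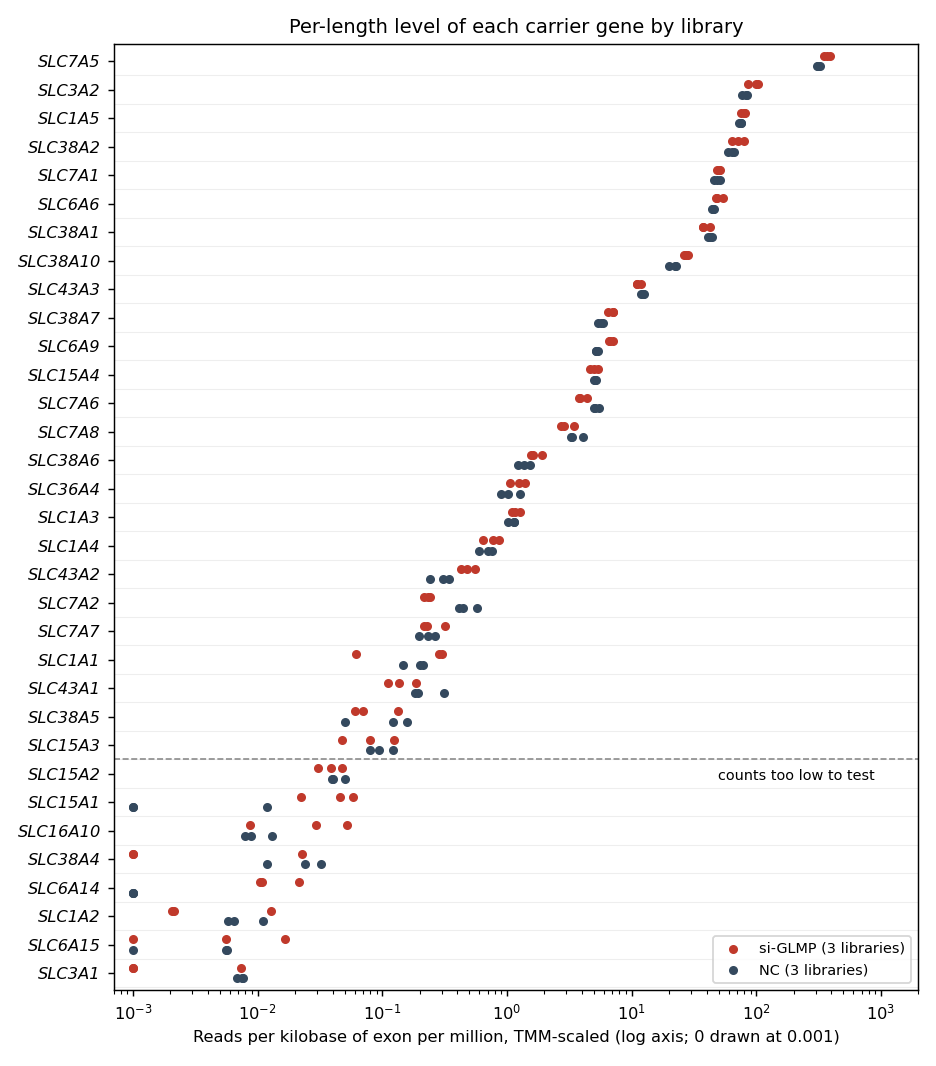
Per-length level (RPKM, log axis, with 0 drawn at 0.001) of each of the 33 carrier genes in each library, si-GLMP points above NC points, ordered by the mean of all 6 libraries. SLC7A5 stands above all others at 370.4 RPKM in si-GLMP and 315.3 in NC, and the 8 genes under the dashed line had too few counts to be tested.

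The exchanger SLC7A5 and its heavy chain SLC3A2 both rose. SLC7A5 (LAT1; ENSG00000103257, chromosome 16, 87830023 to 87869488 on GRCh38) brings leucine and other large neutral amino acids into the cell in exchange for glutamine. It had 1753, 1653 and 1867 CPM in the si-GLMP libraries, against 1491, 1532 and 1465 CPM in the NC libraries. Each si-GLMP library lay above each NC library. SLC7A5 thus rose by 17.5%, or 0.23 ± 0.06 on the log2 scale (SE; edgeR adjusted p = 0.00430). Without si-GLMP replicate 3, the highest library, the change was 0.19 and no longer passed (edgeR adjusted p = 0.0579). SLC3A2 (the heavy chain of CD98; ENSG00000168003, chromosome 11, 62856102 to 62888875) had 530.0, 446.5 and 517.5 CPM in si-GLMP libraries, against 436.1, 394.4 and 432.4 CPM in NC libraries. The groups did not overlap, although si-GLMP replicate 2 was close to NC replicate 1. The heavy chain rose by 0.24 ± 0.07 on the log2 scale (SE; edgeR adjusted p = 0.00453).

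The promoters of SLC3A2 and SLC7A5 are shown because these transcripts rose together, and that of SLC38A7 because it was a called member with a motif match. The sequences are those of RefSeq on GRCh38.p14, from 250 bases before to 50 bases after the annotated start, on the strand of the gene. They lie at chr11:62881449-62881748 on the plus strand, chr16:87869458-87869757 on the minus strand and chr16:58684721-58685020 on the minus strand. The window of SLC3A2 is at an internal start of RefSeq, well inside the gene span given above, and those of SLC7A5 and SLC38A7 are near the 5′ ends of their genes. Capitals mark matches to TGATGNAA, the core of the element bound by ATF4 with C/EBP factors, or to CACGTG, the E-box.
SLC3A2: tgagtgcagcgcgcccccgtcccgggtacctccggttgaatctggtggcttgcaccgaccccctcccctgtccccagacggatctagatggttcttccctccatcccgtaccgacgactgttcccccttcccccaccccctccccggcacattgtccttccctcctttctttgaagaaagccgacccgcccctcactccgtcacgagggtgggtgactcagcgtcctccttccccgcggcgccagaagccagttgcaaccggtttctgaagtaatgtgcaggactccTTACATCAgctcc
SLC7A5: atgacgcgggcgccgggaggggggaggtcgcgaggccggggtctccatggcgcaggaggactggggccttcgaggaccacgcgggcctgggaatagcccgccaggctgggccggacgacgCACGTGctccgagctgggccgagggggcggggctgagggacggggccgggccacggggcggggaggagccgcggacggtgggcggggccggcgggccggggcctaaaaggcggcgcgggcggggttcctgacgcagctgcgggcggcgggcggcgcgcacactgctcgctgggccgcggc
SLC38A7: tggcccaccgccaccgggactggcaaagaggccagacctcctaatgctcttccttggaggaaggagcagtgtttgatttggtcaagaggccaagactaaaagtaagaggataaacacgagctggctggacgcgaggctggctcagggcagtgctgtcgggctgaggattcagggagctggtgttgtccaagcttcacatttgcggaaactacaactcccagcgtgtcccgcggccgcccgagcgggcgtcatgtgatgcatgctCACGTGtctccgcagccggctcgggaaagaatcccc
SLC3A2 carried TGATGNAA on the opposite strand, beginning 37 bases after the start. SLC7A5 carried the E-box at position -130 relative to the start, and SLC38A7 carried it 14 bases after the start. RefSeq promoters were matched for 26 of the 33 members, and both strands were searched. Among the 26 were 8 called members, of which 1 held TGATGNAA and 2 held CACGTG. Those are the promoters shown, and the other called members among the 26 held neither motif. TGATGNAA was found in 4 of the 26, SLC1A3, SLC3A2, SLC7A1 and SLC38A1, beside 3.62% of all 35116 promoters of this length. CACGTG was found in 4 of the 26, SLC7A5, SLC38A5, SLC38A7 and SLC43A1, beside 7.26% of all promoters. The CLEAR element of lysosomal genes, searched as its full palindrome, which contains the E-box, was found in 0 of the 26 and in 0.353% of all promoters. A match describes these letters in this window and not a bound site.

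Of the other light chains among the members, SLC7A6 fell, and SLC7A7 and SLC7A8 did not pass. SLC7A6, an exchanger of cationic against neutral amino acids, also pairs with SLC3A2. It had 28.7, 29.4 and 33.2 CPM in si-GLMP libraries, against 38.5, 41.8 and 38.2 CPM in NC libraries. The groups were well apart, with a change of -0.38 ± 0.09 on the log2 scale (SE; edgeR adjusted p = 0.000640). GENCODE has 44.4% of the exons of SLC7A6 overlapping SLC7A6OS on the opposite strand, and whether the counting used strand is unknown from the sources used here. SLC7A6OS had 222, 202 and 185 counts in si-GLMP libraries and 192, 163 and 168 in NC libraries (log2 fold change 0.23 ± 0.13, edgeR adjusted p = 0.225). SLC7A8, a second carrier of neutral amino acids, had 17.2, 16.1 and 20.6 CPM in si-GLMP libraries and 19.6, 24.3 and 20.1 CPM in NC libraries. These ranges overlapped, and SLC7A8 was not called at -0.25 ± 0.11 (edgeR adjusted p = 0.0849), but passed without si-GLMP replicate 3 (-0.35, edgeR adjusted p = 0.0391). SLC7A7, a close relative of SLC7A6, was low at 1.31 ± 0.294 CPM in si-GLMP and 1.19 ± 0.183 CPM in NC (SD, n = 3 each) and was not called. SLC7A11, a light chain outside the members, was named after its values were seen. It had 35.8 RPKM in si-GLMP and 31.5 in NC, with overlapping groups. Its change of 0.18 ± 0.07 on the log2 scale was not called (SE; edgeR adjusted p = 0.0627).

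Since light chains reach the surface with SLC3A2, each of the 4 among the members was also set against it within each library. The RPKM of SLC7A5 was 3.61, 4.04 and 3.94 times that of SLC3A2 in si-GLMP libraries, against 3.73, 4.24 and 3.70 times in NC libraries, with partial overlap: si-GLMP replicate 1 was the lowest of the 6 and NC replicate 2 the highest. The mean log2 ratio of SLC7A5 to SLC3A2 differed by -0.01 between si-GLMP and NC (exact permutation test over the 6 libraries, two-sided, p = 1). For SLC7A6 the log2 ratio was -4.58 ± 0.152 in si-GLMP and -3.96 ± 0.152 in NC (SD, n = 3 each), a difference of -0.62 with no overlap. For SLC7A8 it was -5.01 ± 0.151 in si-GLMP and -4.52 ± 0.250 in NC, a difference of -0.49 with no overlap. Both gave an exact permutation p of 0.1, the smallest that 3 libraries against 3 allow, and 0.2 after adjustment over the 4 ratios. The rise of SLC3A2, 0.24 on the log2 scale, enters both differences. SLC7A6 itself changed by -0.38, and SLC7A8, which was not called, by -0.25. The ratio of SLC7A7 differed by -0.11, with an exact permutation p of 0.7. The design therefore could not bring any of these ratios past 0.05.

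**Figure D3:**
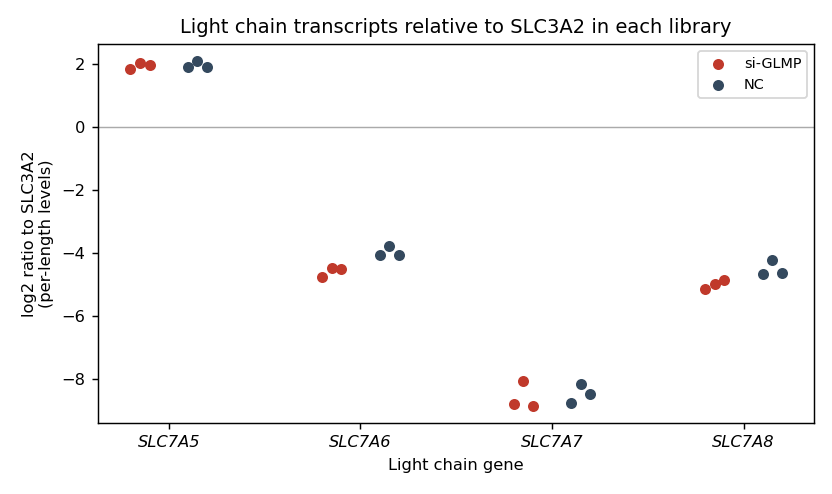
Log2 ratio of the RPKM of 4 light chain genes to that of SLC3A2 in each library, si-GLMP points left of NC points for each gene. The SLC7A5 points of the groups overlap, and the SLC7A6 and SLC7A8 points of si-GLMP lie below those of NC.

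Of the cationic amino acid carriers, SLC7A2 fell and SLC7A1 did not pass. SLC7A2 takes up arginine and lysine, is known to be induced in inflammation, and lies on chromosome 8. It was a minor transcript with 39, 39 and 35 counts in si-GLMP libraries, against 65, 72 and 103 counts in NC libraries. These were 1.91, 1.84 and 1.70 CPM in si-GLMP and 3.26, 3.52 and 4.57 CPM in NC, so every si-GLMP library was well below every NC library. The change of -1.06 ± 0.21 on the log2 scale (SE; edgeR adjusted p = 0.000123) was the largest in size among the called members, a fold change of 0.478. SLC7A1, the ubiquitous arginine carrier, stood far above it, at 50.1 RPKM in si-GLMP and 48.7 in NC, where SLC7A2 had 0.229 RPKM in si-GLMP and 0.479 in NC. It had 393.7, 388.0 and 373.2 CPM in si-GLMP libraries and 354.3, 393.3 and 376.0 CPM in NC libraries. The groups overlapped, and the log2 fold change was 0.04 ± 0.06 (edgeR adjusted p = 0.713).

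None of the 4 tested SLC1 carriers was called by edgeR, DESeq2 or limma-voom, with unadjusted edgeR p-values between 0.188 and 0.606. SLC1A5 (ASCT2), the sodium-coupled exchanger that brings in glutamine, had 269.7, 251.8 and 264.4 CPM in si-GLMP libraries and 240.5, 250.3 and 250.5 CPM in NC libraries. The si-GLMP values lay just above those of NC, and the log2 fold change of 0.08 ± 0.06 did not pass (edgeR adjusted p = 0.373). An antisense gene shares 23.4% of the exons of SLC1A5 and had at most 2 counts in a library. SLC1A4, a carrier of serine and alanine, averaged 5.26 ± 0.742 CPM in si-GLMP and 4.76 ± 0.581 CPM in NC (SD, n = 3 each). SLC1A3, a glutamate carrier best known from glia, averaged 7.35 ± 0.540 CPM in si-GLMP and 6.87 ± 0.377 CPM in NC. SLC1A1, a carrier of glutamate and cysteine, was at most 1.21 CPM in a library, with 5, 24 and 25 counts in si-GLMP libraries and 16, 12 and 19 in NC libraries.

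Among the sodium- and chloride-coupled SLC6 carriers, SLC6A9 rose. SLC6A9 (GlyT1; ENSG00000196517, chromosome 1, 43991500 to 44031467) takes up glycine. Its level was 36.8, 33.8 and 34.5 CPM in si-GLMP libraries, against 26.7, 27.9 and 26.9 CPM in NC libraries. The replicates were tight and the groups far apart, and SLC6A9 rose by 0.36 ± 0.09 on the log2 scale (SE; edgeR adjusted p = 0.00102). SLC6A6, the taurine carrier, had 395.3, 397.6 and 445.9 CPM in si-GLMP libraries and 379.8, 365.8 and 374.4 CPM in NC libraries. The groups did not overlap, but SLC6A6 was not called at 0.15 ± 0.06 (edgeR adjusted p = 0.0935). It passed without si-GLMP replicate 2 (0.17, edgeR adjusted p = 0.0467) and with a trend on GC content and length removed (0.18, edgeR adjusted p = 0.0102).

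Of the SLC38 family, carriers of glutamine and other small neutral amino acids, 3 of 6 tested genes rose and 0 fell, where 12.0% of all tested genes were called higher. The call of 1 of the 3, SLC38A2, was lost under several alternatives. SLC38A10 (ENSG00000157637, chromosome 17, 81245000 to 81295547), an intracellular member, had 212.4, 204.6 and 220.5 CPM in si-GLMP libraries, against 174.4, 152.7 and 171.1 CPM in NC libraries. It rose by 0.36 ± 0.07 on the log2 scale (SE; edgeR adjusted p = 3.59e-05), the smallest adjusted p of the 25 tested members. SLC38A7 (SNAT7; ENSG00000103042, chromosome 16, 58665109 to 58685104), which releases glutamine from the lysosome, had 49.8, 45.5 and 49.4 CPM in si-GLMP libraries, against 37.4, 39.4 and 41.6 CPM in NC libraries. For both genes every si-GLMP library exceeded every NC library. SLC38A7 changed by 0.29 ± 0.08 (edgeR adjusted p = 0.00570), and by 0.25 without NC replicate 1, where the call was lost (edgeR adjusted p = 0.0624).

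SLC38A2 (SNAT2; chromosome 12, 46358189 to 46372867), known as the member that amino acid starvation induces, only just passed. It had 422.9, 528.4 and 468.8 CPM in si-GLMP libraries and 388.6, 425.4 and 439.1 CPM in NC libraries. The groups overlapped, with si-GLMP replicate 1 below NC replicates 2 and 3. The change was 0.18 ± 0.07 on the log2 scale (SE; edgeR adjusted p = 0.0493). It no longer passed without si-GLMP replicate 2, at 0.10 (edgeR adjusted p = 0.336), or without si-GLMP replicate 3, at 0.20 (edgeR adjusted p = 0.110). The same held without NC replicate 1, at 0.14 (edgeR adjusted p = 0.284), and without NC replicate 2, at 0.19 (edgeR adjusted p = 0.0647). It was also lost with RLE scaling, no filter on low counts, DESeq2, limma-voom and with the mitochondrially encoded genes left out, at adjusted p between 0.0539 and 0.105. SLC38A1 (SNAT1), a relative whose gene lies on the same chromosome, had 376.0, 429.8 and 378.1 CPM in si-GLMP libraries and 409.0, 442.2 and 424.7 CPM in NC libraries. The groups overlapped, and its log2 fold change was -0.11 ± 0.06 (edgeR adjusted p = 0.242), or -0.17 without si-GLMP replicate 2, where it passed (edgeR adjusted p = 0.0409). SLC38A6 was not called at 0.30 ± 0.14 (edgeR adjusted p = 0.113), with 8.73 ± 0.977 CPM in si-GLMP and 7.09 ± 0.803 CPM in NC (SD, n = 3 each) and no overlap. SLC38A5 was low, at 5, 6 and 11 counts in si-GLMP libraries and 4, 13 and 11 in NC libraries. SLC36A4, a proton-independent carrier of proline and tryptophan, was not called at 0.21 ± 0.13 (edgeR adjusted p = 0.262).

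**Figure D4:**
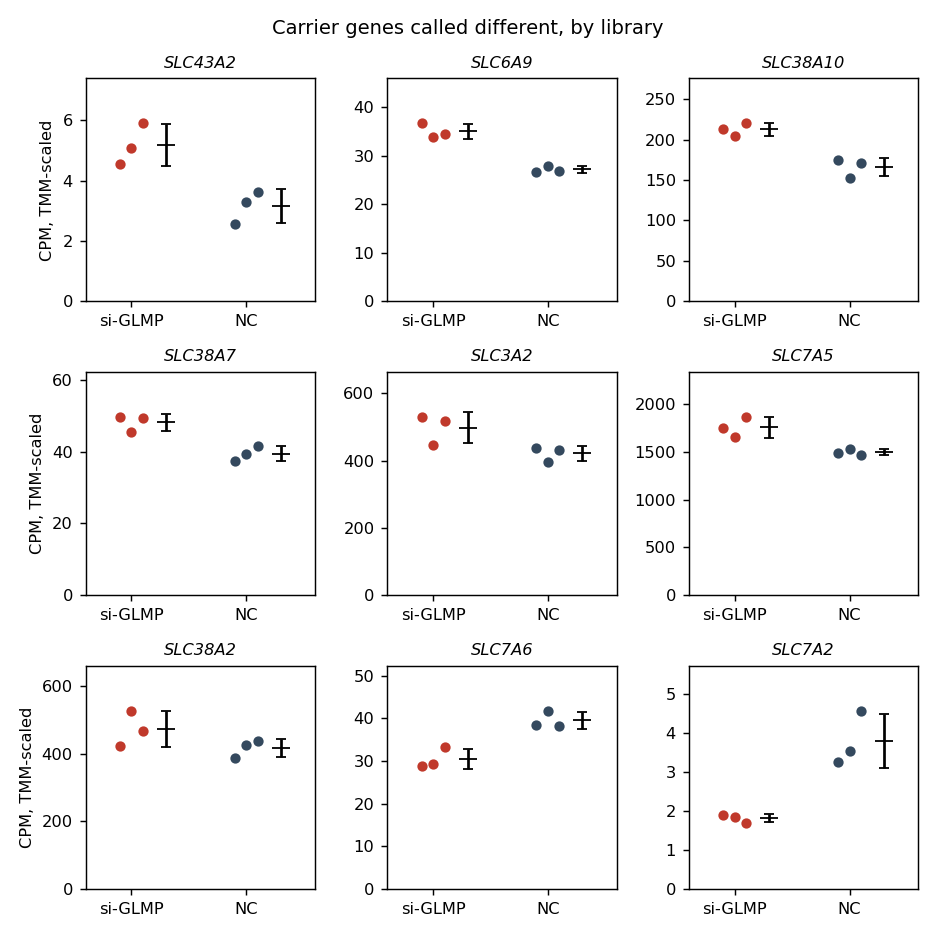
Level (CPM, TMM-scaled, axes from 0) of the 9 carrier genes called different, one panel a gene, with a point for each of the 3 si-GLMP libraries on the left and the 3 NC libraries on the right, and mean ± SD beside them. The points of the groups overlap only for SLC38A2, where si-GLMP replicate 1 (422.9 CPM) lies below NC replicates 2 and 3.

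The facilitated carriers held the largest rise. SLC43A2 (LAT4; ENSG00000167703, chromosome 17, 1569267 to 1628886), a uniporter of leucine, isoleucine, methionine and phenylalanine, had 93, 108 and 122 counts in si-GLMP libraries, against 51, 67 and 82 counts in NC libraries. These were 4.55, 5.09 and 5.91 CPM in si-GLMP and 2.56, 3.28 and 3.64 CPM in NC, with no overlap. SLC43A2 rose by 63.3%, or 0.71 ± 0.18 on the log2 scale (SE; edgeR adjusted p = 0.00228). In RPKM, SLC43A2 remained a minor transcript, at 0.489 in si-GLMP and 0.298 in NC. SLC43A3, a relative known as a purine base carrier, had 53.5, 49.9 and 50.3 CPM in si-GLMP libraries and 57.0, 53.4 and 56.3 CPM in NC libraries. It overlapped between groups only at si-GLMP replicate 1 and NC replicate 2 and was not called at -0.12 ± 0.08 (edgeR adjusted p = 0.289). SLC43A1 (LAT3), with 8, 14 and 10 counts in si-GLMP libraries and 13, 14 and 25 in NC libraries, was not called at -0.67 ± 0.41 (edgeR adjusted p = 0.255).

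The peptide carriers were low except for SLC15A4, and neither of the tested ones, SLC15A3 and SLC15A4, was called (unadjusted edgeR p of 0.598 and 0.807). SLC15A4 (PHT1), which carries histidine and dipeptides out of lysosomes and endosomes, had 27.5 ± 1.90 CPM in si-GLMP and 27.9 ± 0.624 CPM in NC (SD, n = 3 each). Its log2 fold change was -0.02 ± 0.09 (edgeR adjusted p = 0.897). SLC15A3, its relative, had 10, 16 and 6 counts in si-GLMP libraries and 15, 10 and 13 in NC libraries. The intestinal peptide carrier SLC15A1 had 5, 2 and 4 counts in si-GLMP libraries and 1, 0 and 0 in NC libraries, and the renal SLC15A2 had 6, 4 and 5 in si-GLMP and 5, 5 and 7 in NC. Neither SLC15A1 nor SLC15A2 had enough reads for a test.

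The other 6 untested members also had few counts. SLC16A10, a carrier of aromatic amino acids, had 2, 7 and 12 counts in si-GLMP libraries and 2, 3 and 2 in NC libraries. SLC1A2, the main glutamate carrier of astrocytes, had 1, 1 and 6 counts in si-GLMP libraries and 5, 3 and 3 in NC libraries. SLC6A14, a broad-range epithelial carrier, had 1, 1 and 2 counts in si-GLMP libraries and 0 in all NC libraries, which allows up to 0.134 to 0.151 CPM there. SLC3A1, SLC6A15 and SLC38A4 had at most 3 counts in any library. SLC3A1, the heavy chain of the cystine exchanger of kidney, had 0, 0 and 1 counts in si-GLMP libraries and 1 count in each NC library.

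Genes around these carriers were counted from 3 further lists. Of 36 other amino acid carriers, 18 were tested, of which 5 were higher, 1 lower and 12 not called. That was 33.3% called, beside 23.3% of all tested genes, with a median log2 fold change of 0.14. The mitochondrial glutamate carrier SLC25A22 rose to 66.0 ± 1.39 CPM in si-GLMP, against 47.1 ± 2.15 CPM in NC (SD, n = 3 each), a log2 change of 0.49 ± 0.08 (edgeR adjusted p = 1.17e-06). The mitochondrial serine carrier SFXN1 rose by 0.33 (edgeR adjusted p = 0.000102). SLC66A1, which exports cationic amino acids from the lysosome, rose by 0.48 ± 0.10 (edgeR adjusted p = 0.000124). Of further lysosomal carriers, named after their values were seen, SLC36A1 rose by 0.23 (edgeR adjusted p = 0.0171). The cystine exporter CTNS had 0.19 (adjusted p = 0.213) and the arginine sensor and carrier SLC38A9 had 0.10 (adjusted p = 0.502), and neither was called. MFSD12 was flat at 0.007 (edgeR adjusted p = 0.966).

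Of 24 tested genes of the amino acid response and of amino acid synthesis, 8 were higher, 5 lower and 11 not called. That was 54.2% called, beside 23.3% of all tested genes, with a median log2 fold change of 0.06. SESN2, a leucine sensor that restrains mTORC1, rose by 0.52 ± 0.08 (edgeR adjusted p = 4.36e-07). Glutamine synthetase, encoded by GLUL, fell to 85.1 ± 4.51 CPM in si-GLMP, against 113.7 ± 2.36 CPM in NC (SD, n = 3 each), a log2 change of -0.42 ± 0.07 (edgeR adjusted p = 4.18e-06). ATF4 and some of its known targets in the list were named after their values were seen. ATF4 rose by 0.28 ± 0.06 (edgeR adjusted p = 0.000547). Among the targets, DDIT3, a stress-induced transcription factor, rose by 0.65 (edgeR adjusted p = 0.00196), CHAC1, which degrades glutathione, by 0.42 (0.0288) and MTHFD2, a mitochondrial enzyme of folate metabolism, by 0.28 (0.00136). PHGDH, the first enzyme of serine synthesis, was lower, at -0.29 (edgeR adjusted p = 0.000564). TRIB3, a pseudokinase, was not called at -0.13 (edgeR adjusted p = 0.170), nor was asparagine synthetase, ASNS, at 2.04 ± 0.257 CPM in si-GLMP and 2.12 ± 0.0663 CPM in NC (SD, n = 3 each). Of 20 cytosolic aminoacyl-tRNA synthetases, which load amino acids onto tRNAs, 0 were higher and 1 lower by edgeR, with a median of -0.09. That was 5% called, beside 23.3% of all tested genes. At an unadjusted p under 0.05, 3 were higher and 5 lower, beside 2758 higher and 2589 lower of all 15900 tested genes. Their ranges were separate with si-GLMP above in 2 and below in 7, beside 18.5% and 17.9% of all tested genes. DESeq2 and limma-voom also called 0 synthetases higher. The called gene was NARS1, at -0.25 ± 0.06 (edgeR adjusted p = 0.00277). The count of called synthetases depended on the settings, between 1 and 4 lower genes and between 0 and 3 higher ones when 1 library was left out.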

How the data were processed

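RNA of 6 PC9OR libraries was extracted with Trizol and made into Illumina mRNA libraries, per the labels' protocols. The authors deposited whole-number read counts per gene, unnormalized. HISAT2 and the build GRCh38 appear, with no role, in the submitters' processing notes. The counting tool, the annotation release and whether counting used strand were not given in the sources used here. All 6 count columns were matched to samples by title, and 0 columns were left over.

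Counts were fitted with edgeR 4.0.16 in R 4.3.3, with filterByExpr (minimum count 10; 15900 of 60664 genes kept), TMM scaling and robust quasi-likelihood F tests of si-GLMP against NC. P-values were adjusted by Benjamini-Hochberg over all tested genes, with a threshold of 0.05, and are called edgeR adjusted p. Standard errors were derived from the fold change and its F statistic. RPKM used the joined exon length of GENCODE 29 on GRCh38, which may differ from the authors' annotation. Light chain ratios were compared by exact permutation over libraries. Floors cover counting error only, as no molecular identifiers are given in the sources used here; standard errors and SDs include the spread between libraries. The fit was tested on simulated counts. Alternatives were other scalings and filters, each library left out, DESeq2 1.42.0, a block on the replicate number, limma-voom (limma 3.58.1), mitochondrially encoded genes left out, and removal of a smooth trend (mgcv) on GC content and length.

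The members and lists were chosen with earlier results of these data known. The genes named were GLMP, all members, and up to 3 genes of each further list with the smallest adjusted p; values per library were given for called members and the 10 highest by RPKM, for others where counts were low, and, chosen after its values were seen, for SLC7A8. Exceptions are marked, and 1 gene that the rule named is not reported here.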

Additional observations from a re-analysis of the deposited data

How the results depend on the processing

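DESeq2 gave no adjusted p for SLC38A5, SLC43A1 and SLC15A3. Of the other 368 values of single tested carriers under an alternative, 346 kept both direction and side of the threshold, 11 lost a call, 4 gained one and 7 changed sign. The calls lost were those of SLC38A2, SLC7A5 and SLC38A7 given above. The sign changes were all in genes that were not called: leaving out 1 library, SLC1A1 ranged from -0.10 to 0.65, SLC7A7 from -0.058 to 0.25, SLC38A5 from -0.73 to 0.0090, SLC15A3 from -0.63 to 0.050 and SLC15A4 from -0.063 to 0.028, and limma-voom gave SLC1A1 -0.060. The count of carriers called ran from 5 to 7 higher and from 2 to 3 lower without 1 library, and from 6 to 8 higher and 2 lower under the other alternatives. With an absolute log2 fold change over 1 as a further condition, only 175 of the 15900 tested genes were higher and 129 lower. Of the 25 tested carriers, 0 were higher and 1 lower. Under that condition the counts were 0 and 0 for the 18 tested other amino acid carriers and 0 and 0 for the 24 amino acid response genes. Of the 20 synthetases, 0 were lower. With so few genes passing in the whole table, lists of this size could hardly hold any.

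Of the other amino acid carriers, 0 were lower with no filter, 2 with a filter of 1 CPM in 3 libraries, 2 with the GC and length trend removed, and from 0 to 3 without 1 library. Lower synthetases numbered 3 with RLE scaling, 3 with the filter of 1 CPM, 3 by DESeq2, 2 by limma-voom, 4 without mitochondrially encoded genes, 4 with the GC and length trend removed, and from 1 to 4 without 1 library. Higher synthetases numbered 1 with that trend removed and from 0 to 3 without 1 library. The cause of these differences was not tested.

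Whether the replicate numbers pair the libraries was not settled: same-numbered libraries had correlations of deviations of only 0.0388, 0.0263 and 0.00128. Each si-GLMP library correlated best with its own number, but NC replicate 3 correlated best with si-GLMP replicate 2, at 0.00963. With the replicate number as a block, 7 carriers were higher and 2 lower, 2052 genes were higher and 1920 lower in the whole table, and 4 synthetases were lower. GLMP stayed between -2.40 and -2.15 without 1 library. The 8 carriers with few counts were not tested. Of the tested ones, SLC1A1, SLC38A5, SLC43A1 and SLC15A3 averaged under 1 CPM in both groups and were not called. Their standard errors were wide, between 0.41 and 0.52 on the log2 scale. The size of change that could be detected at such levels was not tested.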
